A study of Saccharomyces cerevisiae with 6 samples.

Results

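RNAs of budding yeast sugar transporter genes were followed in a cell-free translation assay, to see how they were shared between ribosome-bound and unbound RNA. The genes were the hexose transporter genes HXT1 to HXT7, the glucose sensor genes SNF3 and RGT2, and STL1. They were found by locus tag in the deposited table. The table held an RNA for 6 of the 10 genes, with 1 RNA each: STL1 (YDR536W), HXT4 (YHR092C), HXT2 (YMR011W), HXT7 (YDR342C), HXT3 (YDR345C) and HXT1 (YHR094C). HXT5, HXT6, SNF3 and RGT2 are not analysed here, so no sensor is described. The 6 RNAs are among 6962 RNAs of 4134 genes.

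Per the labels' protocols, RNAs were synthesised with T7 RNA polymerase, capped and incubated in a translation extract of Saccharomyces cerevisiae, and fractions were taken from a sucrose gradient. There were 3 libraries of the 80S fraction, which holds RNA bound by a ribosome with both subunits, 2 libraries of untranslated RNA and 1 library of input RNA. The label of the input names phenol and chloroform extraction alone, whereas the other libraries also had a biotin pulldown, so gradient fraction and pulldown cannot be told apart in a comparison with the input. The treatment label is the same for every library and names the incubation for the input too, so whether the input RNA had been in extract is not settled by the labels. The RNAs are synthetic, so the assay reads the RNA made in vitro and not an mRNA of living cells. No yeast strain is named for the extract, and the labels do not say whether replicates are separate reactions. The p-values therefore measure only the spread between libraries, which may be technical.

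Values are FPKM, fragments scaled to RNA length and to the mapped fragments of the library, as deposited. Sums over a library lay between 24779725 and 28542241 FPKM. The median RNA stood at 2149 to 2265 FPKM in the 80S libraries, at 2098 and 2049 FPKM in untranslated replicates 1 and 2, and at 3112 FPKM in the input. Across RNAs, Pearson's r of log2 FPKM was 0.972 to 0.980 between 80S libraries and 0.926 between the untranslated libraries. Because FPKM is relative to the whole library, the value of an RNA also depends on the others.

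Yeast takes up glucose by facilitated diffusion through hexose transporters of the plasma membrane, proteins of the major facilitator superfamily. Cells swap transporters of different affinity as glucose becomes scarce or plentiful: the sensors Snf3 and Rgt2 report external glucose, and the repressor Rgt1 holds HXT genes off when none is sensed. HXT1 and HXT3 encode low-affinity transporters, and the reference annotation gives HXT2, HXT4 and HXT7 as high-affinity transporters. STL1 encodes a glycerol and proton symporter of the sugar transporter family, known for its induction by osmotic shock and its loss from the membrane in glucose.

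Each RNA is named by its locus tag and a number, which was read as the length in nucleotides (nt) of the leader, the stretch upstream of the start codon. The 24 bases before each start codon in the reference genome R64 (RefSeq), followed by the start codon, are shown because this is where a scanning ribosome selects its start. They are written as DNA on the strand of the RNA, with the base at -3 and the start codon in capitals.
STL1: atagaacatagaaagttttagAccATG
HXT4: cttttacaataaaatctgccaAaaATG
HXT2: caaaaagacttataaagcaacAtaATG
HXT7: agtttttttaattttaatcaaAaaATG
HXT3: aatttacatctgagttaaacaAtcATG
HXT1: caactagttgatatacgtaaaAtcATG
These stretches lie at chrIV:1507981-1508007 (plus strand) for STL1, chrVIII:288809-288835 (minus) for HXT4, chrXIII:288055-288081 (plus) for HXT2, chrIV:1155926-1155952 (minus) for HXT7, chrIV:1164658-1164684 (minus) for HXT3 and chrVIII:292623-292649 (minus) for HXT1.

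All 6 leaders had an A at -3, the base that favours start codon recognition in yeast, as did 62.5% of the 6855 leaders of the pool with a sequence. None of the 6 held an ATG upstream of the start codon, and 14.2% of all leaders did. In the reference genome all 6 also began with A, the first base of 78.3% of leaders. The first base of the RNAs as synthesised was not examined. The 6 were poor in G and C: their GC share was 25.0% in STL1, 26.7% in HXT4, 18.4% in HXT2, 22.1% in HXT7, 25.0% in HXT3 and 26.8% in HXT1, each below the pool's median of 34.7%. Leader length differed widely, with 28 nt for STL1, 32 for HXT3, 38 for HXT2, 41 for HXT1, 75 for HXT4 and 86 for HXT7, against a median of 45 nt over all RNAs.

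The HXT7 leader was the only 1 of the 6 with a run of 7 T, visible near the left end of its stretch above, and 2.32% of all leaders had such a run or a longer one. HXT6 and HXT7 are near-identical neighbours: they differ at 3 of 1713 coding bases and at 1 of the 86 bases upstream of the start codon, so reads of this RNA hardly tell both genes apart, and the value of HXT7 is uncertain in that respect. No member leader shared a run of 20 bases with any other leader of the pool.

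STL1, the glycerol symporter, showed the widest gap between the fractions. It stood at 4588, 5954 and 6572 FPKM in 80S replicates 1, 2 and 3, against 625 and 372 FPKM in untranslated replicates 1 and 2. All 80S libraries were far above both untranslated libraries. Its level in 80S was 11.7-fold higher, and the log2 change was 3.54 (standard error, SE, 0.27, in limma, with an adjusted p of 1.90e-05). This was rank 11 from the top among 6962 RNAs. The input stood at 5438 FPKM, within the range of the 80S libraries and well above the untranslated ones.

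HXT4, an annotated high-affinity transporter, was the most abundant member in 80S. Its FPKM was 21853, 26843 and 23719 in the 80S libraries, against 4784 and 3834 in the untranslated libraries. The groups did not overlap, and 99.2% of RNAs had a lower mean in 80S than HXT4. The change was 5.62-fold, or log2 2.49 (SE 0.18, limma, adjusted p = 1.56e-05). The input held 2135 FPKM, below every library of both fractions.

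HXT2, annotated as a high-affinity transporter, was the scarcest member throughout. It stood at 579, 646 and 781 FPKM in 80S libraries, against 161 and 147 FPKM in untranslated libraries. The gap was again wider than the spread within either fraction: 4.29-fold, log2 2.10 (SE 0.25, limma, adjusted p = 0.000139). Its untranslated mean lay above that of only 0.316% of RNAs, and the number of reads behind such low values is not known. The input, at 520 FPKM, was close under the lowest 80S library. Only 6.92% of RNAs had a lower value in the input.

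HXT7, annotated as a high-affinity transporter expressed at a high basal level, stood at 4064, 4777 and 4989 FPKM in 80S libraries, against 1597 and 1645 FPKM in untranslated libraries. No library of one fraction reached the other. The change was 2.83-fold, log2 1.50 (SE 0.18, limma, adjusted p = 0.000144). The input value of 4838 FPKM fell among the 80S values.

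HXT3, a low-affinity transporter, stood at 1129, 1267 and 1274 FPKM in 80S libraries, against 835 and 1071 FPKM in untranslated libraries, with 1257 FPKM in the input. The 80S libraries were all higher, but untranslated replicate 2 came near the lowest of them. The log2 change of 0.37 (95% interval -0.13 to 0.86, limma, adjusted p = 0.156) did not pass the threshold. It was 0.19 without untranslated replicate 1 and 0.55 without untranslated replicate 2, and passed in neither case.

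HXT1, the other low-affinity transporter, stood at 7595, 6180 and 8871 FPKM in 80S libraries, against 11782 and 5718 FPKM in untranslated libraries. The untranslated libraries lay on both sides of the 80S libraries. They differed 2.06-fold, more than for 93.1% of RNAs. The log2 change was -0.14 (95% interval -0.83 to 0.56, limma, adjusted p = 0.701). Its sign turned on 1 library: it was 0.39 without untranslated replicate 1 (adjusted p = 0.143) and -0.66 without untranslated replicate 2 (adjusted p = 0.0197), and without 80S replicate 2 it was 0.00011 (adjusted p = 1.00). Its input FPKM of 14141 was the highest of the 6 and above every fraction library.

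**Figure D1:**
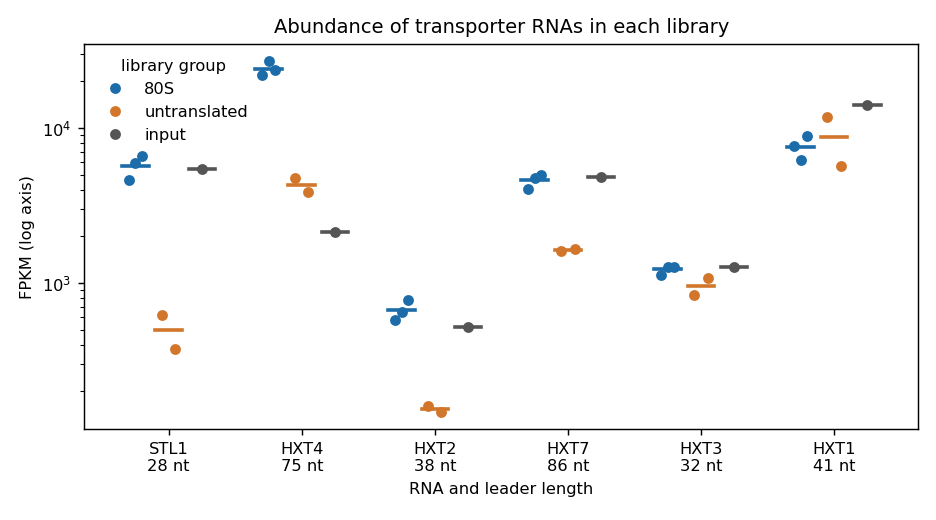
FPKM on a log axis of each RNA in every library, with 80S, untranslated and input from left to right for each RNA; points are libraries and horizontal lines are group means. STL1, HXT4, HXT2 and HXT7 have all 80S points above both untranslated points by a wide gap, while the untranslated points of HXT1, at 11782 and 5718 FPKM, lie on both sides of its 80S points.

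Counted together, 4 of the 6 RNAs were higher in 80S than in untranslated RNA at an adjusted p under 0.05 in limma, 0 were lower (0 also at an unadjusted p under 0.05) and 2 did not pass. Of all 6962 RNAs, 38.6% were higher and 31.8% lower, 70.4% in either direction. The median log2 change of the 6 was 1.80, and that of all RNAs 0.18. In 5 of the 6 the libraries of the fractions did not overlap, with 80S above in each; this was so for 79.5% of all RNAs, with 80S above in 43.6% and below in 35.9%. Rescaling the libraries by median ratios moved the median of all RNAs by -0.15, and the 4 calls kept their direction. Relative to the median of all RNAs, the log2 change was 3.37 for STL1, 2.31 for HXT4, 1.92 for HXT2, 1.33 for HXT7, 0.19 for HXT3 and -0.31 for HXT1.

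**Figure D2:**
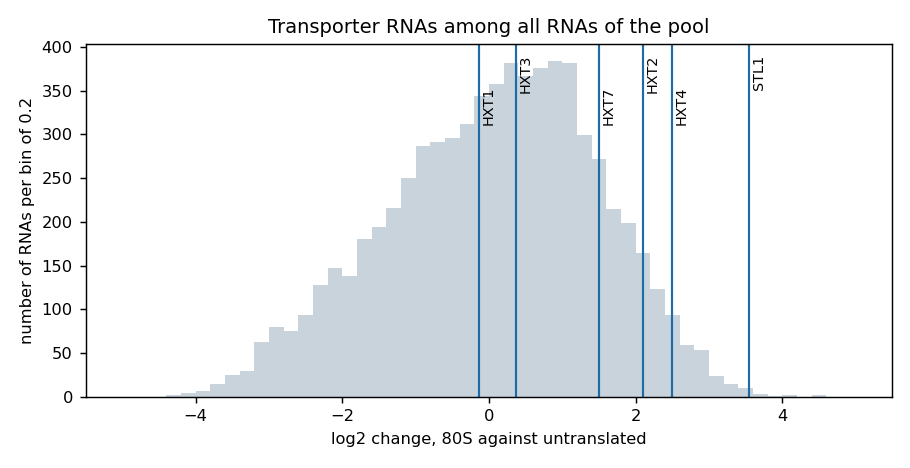
Number of RNAs of the pool by log2 change between 80S and untranslated RNA, in bins of 0.2, with a vertical line at each transporter RNA. HXT1 (-0.14) and HXT3 (0.37) fall in the middle of the pool, and STL1 (3.54) falls in its far upper tail.

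The members were also set against each other, in a test added after their values were seen. The difference in log2(FPKM + 1) between 2 RNAs was formed within each library and compared between 80S and untranslated libraries, for all 15 pairs of the 6 RNAs. The pairs were fitted and adjusted in 1 table with the 3811 pairs of RNAs of the same gene, and 68.7% of that table's pairs passed. That share is almost wholly of pairs within a gene, so it is no background for pairs of different genes. Of the 15 pairs, 13 differed (limma, adjusted p under 0.05). They are not independent, since they come from 6 RNAs, and each difference follows from the changes given above.

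STL1 had a higher 80S to untranslated ratio than each hexose transporter, from 2.08-fold that of HXT4 (log2 difference 1.06, SE 0.22, limma, adjusted p = 0.00341) to 12.8-fold that of HXT1 (3.68, SE 0.24, adjusted p = 1.28e-05). Each of the 3 annotated high-affinity transporters had a higher ratio than each low-affinity one. These are single RNAs, grouped after their values were seen, and a link with affinity was not tested. The smallest of these differences was 2.19-fold, between HXT7 and HXT3 (log2 1.13, SE 0.21, limma, adjusted p = 0.00198), and the largest 6.17-fold, between HXT4 and HXT1 (2.63, SE 0.29, adjusted p = 0.000126). HXT4 and HXT1 are transcribed from the same strand of chromosome VIII, with their leaders at chrVIII:288812-288886 and chrVIII:292626-292666.

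Some RNAs close to each other in the order were harder to tell apart, though STL1 and HXT4 differed, as did HXT7 and HXT3. HXT4 exceeded HXT7 1.98-fold (limma, adjusted p = 0.00261), but the log2 difference of 0.39 between HXT4 and HXT2 did not pass (95% interval -0.14 to 0.92, limma, adjusted p = 0.166). HXT2 exceeded HXT7 1.51-fold (limma, adjusted p = 0.0430), and that call was lost without 80S replicate 1, 2 or 3 in turn, without untranslated replicate 2, at a pseudocount of 10 and with the replicate block. HXT3 and HXT1 did not differ by the test (log2 0.50, 95% interval -0.42 to 1.43, limma, adjusted p = 0.286), except when untranslated replicate 2 was left out.

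The input comparisons ask whether an RNA made up more or less of a fraction than of the RNA labelled input. Both comparisons share the single input library. Its spread was taken from the replicated fractions, which were prepared differently, so the p-values against the input do not include the input's own spread. HXT4 was 11.3-fold higher in 80S than in the input (24139 ± 2521 FPKM, SD, n = 3, against 2135 FPKM in 1 library; log2 3.49, SE 0.23, limma, adjusted p = 0.000153), rank 45 of 6962. It was the 1 member higher in 80S, where 20.1% of all RNAs were (53.3% in either direction). None of the 6 was lower by limma (0 at an adjusted p under 0.05, 1 at an unadjusted p under 0.05), where 33.2% of all RNAs were.

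The RNA of that unadjusted call was HXT1, with a mean of 7549 ± 1346 FPKM (SD, n = 3) in 80S and 14141 FPKM in the input. Its log2 change was -0.92 (95% interval -1.80 to -0.04, limma, adjusted p = 0.0731). It passed without untranslated replicate 1 (adjusted p = 0.00293) or 2 (adjusted p = 0.00330), which left the value itself at -0.92. STL1 (log2 0.05), HXT2 (0.35), HXT7 (-0.08) and HXT3 (-0.04) were not distinguishable from the input at this replication. Their 95% intervals were -0.73 to 0.84, -0.38 to 1.08, -0.60 to 0.45 and -0.67 to 0.58, in the same order.

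In the untranslated fraction, STL1, HXT2 and HXT7 were lower than in the input and HXT4 was higher. STL1 fell to 499 ± 179 FPKM (SD, n = 2) in untranslated RNA, against 5438 FPKM in the input, 11.2-fold (log2 -3.49, SE 0.36, limma, adjusted p = 0.000475). It had the 55th lowest change of all 6962 RNAs. HXT2 was 3.36-fold lower, at 154 ± 9.80 FPKM in untranslated RNA (SD, n = 2) and 520 FPKM in the input (limma, adjusted p = 0.00373). HXT7 was 2.98-fold lower, at 1621 ± 34.0 FPKM in untranslated RNA (SD, n = 2) and 4838 FPKM in the input (limma, adjusted p = 0.00156).

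HXT4 was 2.01-fold higher in untranslated RNA, at 4309 ± 672 FPKM (SD, n = 2), than in the input, at 2135 FPKM (log2 1.00, SE 0.24, limma, adjusted p = 0.00949). HXT3 had a mean of 953 ± 167 FPKM in untranslated RNA (SD, n = 2) and 1257 FPKM in the input, and its log2 change of -0.41 did not pass (limma, adjusted p = 0.259). HXT1 had a mean of 8750 ± 4288 FPKM (SD, n = 2) and 14141 FPKM in the input, and its change of -0.78 did not pass (limma, adjusted p = 0.137). The HXT1 change was -1.31 without untranslated replicate 1 and passed (adjusted p = 0.00121), and -0.26 without untranslated replicate 2 (adjusted p = 0.444).

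Of the 6 RNAs 3 were thus lower in untranslated RNA than in the input and 1 was higher, where 34.4% and 17.4% of all RNAs were, 51.8% in either direction. The counts of all RNAs depended on the scaling. After rescaling by median ratios, 1838 RNAs were higher and 1918 lower in 80S than in the input, where the deposited scaling gave 1399 and 2314. For untranslated RNA against the input, 1825 were higher and 1633 lower, where the deposited scaling gave 1209 and 2397. The median of all RNAs moved by 0.24 and 0.39 in these comparisons. Relative to that median, HXT4 stood at 3.74 in 80S and 1.37 in untranslated RNA, STL1 at 0.30 and -3.13, HXT2 at 0.60 and -1.39, and HXT7 at 0.18 and -1.21. HXT3 and HXT1 stood at 0.21 and -0.67 in 80S and at -0.05 and -0.42 in untranslated RNA. No member changed its call under the rescaling, but the changes of HXT7 and HXT3 in 80S against the input turned from just below 0 to just above it.

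**Figure D3:**
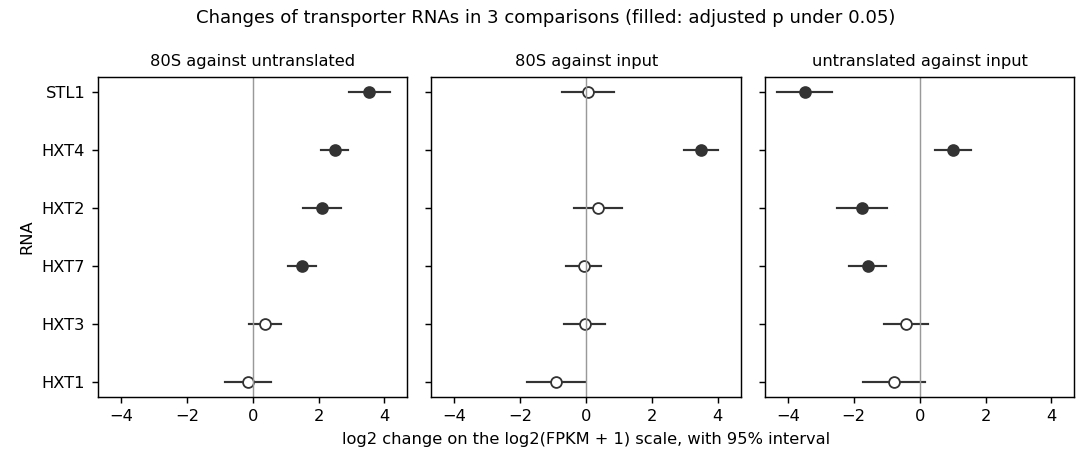
Log2 change of each RNA with its 95% interval from limma, for 80S against untranslated, 80S against input and untranslated against input; filled points have an adjusted p under 0.05. HXT4 is filled and right of 0 in all panels, whereas STL1, HXT2 and HXT7 are near 0 against the input in 80S and left of 0 in untranslated RNA.

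Over the 3 comparisons the members showed 3 patterns of calls. STL1, HXT2 and HXT7 were higher in 80S than in untranslated RNA, lower in untranslated RNA than in the input and not past the threshold in 80S against the input, a combination shared by 1086 RNAs (15.6%). HXT3 and HXT1 passed none, as did 963 RNAs (13.8%). HXT4 was higher in all 3, which 109 RNAs were (1.57%). The mean of both fractions lay above the input for HXT4 alone among the members, and for 20.1% of all RNAs by the fitted changes.

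**Figure D4:**
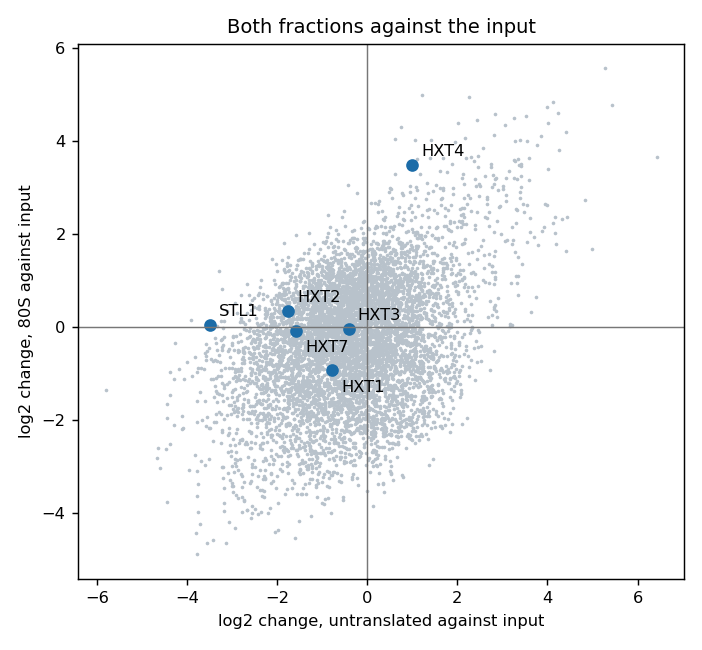
Log2 change in 80S against the input (vertical axis) by log2 change in untranslated RNA against the input (horizontal axis) for all 6962 RNAs (grey) and the 6 transporter RNAs (blue). HXT4 lies in the upper right at 1.00 and 3.49, and STL1 lies at the far left at -3.49 with a vertical value of 0.05; both axes share the input library.

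The order of levels differed between the fractions. By mean FPKM, a measure per length of RNA, the 80S order ran from HXT4 (24139) through HXT1 (7549), STL1 (5705 ± 1015), HXT7 (4610 ± 485) and HXT3 (1223 ± 82.1) to HXT2 (669 ± 103; SD, n = 3 each). The ranges of HXT1 and STL1 overlapped across libraries, as did those of STL1 and HXT7, but within each of the 3 80S libraries HXT1 was above STL1 and STL1 above HXT7. In untranslated RNA the order was HXT1, HXT4, HXT7, HXT3, STL1 and HXT2, where STL1 stood below HXT3. In the input it was HXT1, STL1, HXT7, HXT4, HXT3 and HXT2.

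The RNAs of other genes nearest to STL1 by Euclidean distance of log2(FPKM + 1) over the 6 libraries were MCD4 with a 42 nt leader (distance 0.73) and YPS7 with a 94 nt leader (distance 0.93). Nearest to HXT1, the member with the lowest change, were LEU3 with a 115 nt leader (distance 0.46) and DPH2 with a 30 nt leader (distance 0.48). LEU3 stood at 14048 and 5737 FPKM and DPH2 at 10681 and 6821 FPKM in untranslated replicates 1 and 2. The distance uses these libraries too, so a likeness in them follows from the choice.

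Spearman's rho between the log2 change in 80S against untranslated RNA and the GC share was -0.27 over 6855 RNAs, and with the share of A it was 0.19; these RNAs share libraries and, in many cases, sequence. With leader length rho was -0.04. RNAs whose leader began with A in the reference genome had a median log2 change of 0.21 and those with another first base 0.0064. RNAs with an A at -3 had a median log2 change of 0.20 and those with another base 0.13. RNAs without an upstream ATG had a median of 0.16 and those with one 0.33. Over the 6 members, rho was -0.26 with the GC share, 0.31 with the share of A and -0.26 with leader length, and no p is given for 6 RNAs. STL1 and HXT3, with equal GC shares of 25.0% and leaders of 28 and 32 nt, had ratios 9.04-fold apart (log2 3.18, SE 0.34, limma, adjusted p = 0.000105). That pair was picked after the values were seen, and the part of these features in the members' differences was not tested.

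The other listed genes, of sugar uptake, hexose phosphorylation, glucose signalling and the glycerol and osmotic response, did not share one direction. The table held 50 RNAs of 27 of the 70 listed genes. Of these 11 were higher in 80S than in untranslated RNA, 23 lower and 16 not past the threshold (limma, adjusted p under 0.05), with a median log2 change of -0.55. The backgrounds are those given above, 38.6% higher and 31.8% lower. GAL2, the galactose permease, which also carries glucose, was the 1 other hexose transporter with an RNA. With its 52 nt leader it averaged 4777 ± 667 FPKM in 80S libraries (SD, n = 3) and 1776 ± 420 FPKM in untranslated libraries (SD, n = 2), 2.71-fold higher (log2 1.44, limma, adjusted p = 0.000547). None of the 4 listed maltose transporter genes is analysed here.

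The 4 genes of hexose phosphorylation, the step that traps sugar after entry, had 1 of 8 RNAs higher, 5 lower and 2 not past (median log2 -0.64). Both HXK2 RNAs fell, to log2 changes of -0.98 (29 nt) and -1.28 (47 nt), and GLK1 with a 56 nt leader was lowest at -1.72 (limma, adjusted p = 0.000350). EMI2, a hexokinase-like protein, had the highest RNA and a lower one: its 52 nt leader stood at 3.31 (limma, adjusted p = 1.20e-05) and its 112 nt leader at -0.51 (limma, adjusted p = 0.0350). The ratio of the longer EMI2 leader was 14.1-fold lower than that of the shorter one (limma on pairs of leaders, adjusted p = 8.39e-06). Of 39 such pairs of leaders from 13 listed genes, 24 differed, the longer leader being higher in 8 and lower in 16. Of the 3811 pairs of all genes 68.6% differed, the longer leader being higher in 1284 and lower in 1331. The listed pairs are not independent, since GPA2, NRG2, RAS2 and ELM1 give 28 of the 39. No sugar transporter described here had a second leader to compare.

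The glucose repression pathway, around the Snf1 kinase and the repressors it controls, had 2 of 17 RNAs higher, 8 lower and 7 not past (median log2 -0.70). SNF4 (73 nt), the activating subunit of the kinase, was highest at 1.10 (limma, adjusted p = 0.00845), with 0.71 and 1.50 without untranslated replicates 1 and 2. NRG2 (83 nt), a repressor, was lowest at -4.19 (limma, adjusted p = 1.32e-05), and both RNAs of the repressor MIG3 fell, to -3.20 (29 nt) and -1.36 (68 nt).

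The cAMP branch of glucose signalling had 5 of 14 RNAs higher, 5 lower and 4 not past (median 0.21). It ran from GPA2 (82 nt, 2.15, limma, adjusted p = 4.17e-05), the G protein subunit of the glucose receptor, to PDE1 (64 nt, -2.79, limma, adjusted p = 1.33e-05), the phosphodiesterase that breaks down cAMP. The 5 GPA2 RNAs went both ways: 82 and 93 nt leaders were higher, 48 and 63 nt leaders lower, and the 23 nt leader did not pass. In the Rgt1 branch that governs HXT genes, YCK1 (109 nt), a casein kinase, was the 1 RNA measured, at 0.89 (limma, adjusted p = 0.0506), close to the threshold. It passed without 80S replicate 2 (1.16), without untranslated replicate 1 (1.33), with the replicate block (0.82, adjusted p = 0.0195) and with no trend (adjusted p = 0.0473), and stood at 0.46 without untranslated replicate 2 (adjusted p = 0.230).

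The glycerol and osmotic response, to which STL1 belongs, had 2 of 9 RNAs higher, 5 lower and 2 not past (median -0.69). GUP2 (108 nt) was highest at 0.94 (limma, adjusted p = 0.00688), or 1.29 and 0.59 without untranslated replicates 1 and 2. GPD1 (65 nt), the glycerol phosphate dehydrogenase, was lowest at -2.44 (limma, adjusted p = 0.000429). FPS1, the glycerol channel through which glycerol leaves the cell, had its 38 nt leader higher at 0.75 (limma, adjusted p = 0.00418) and its 95 nt leader at 0.31, not past the threshold.

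**Figure D5:**
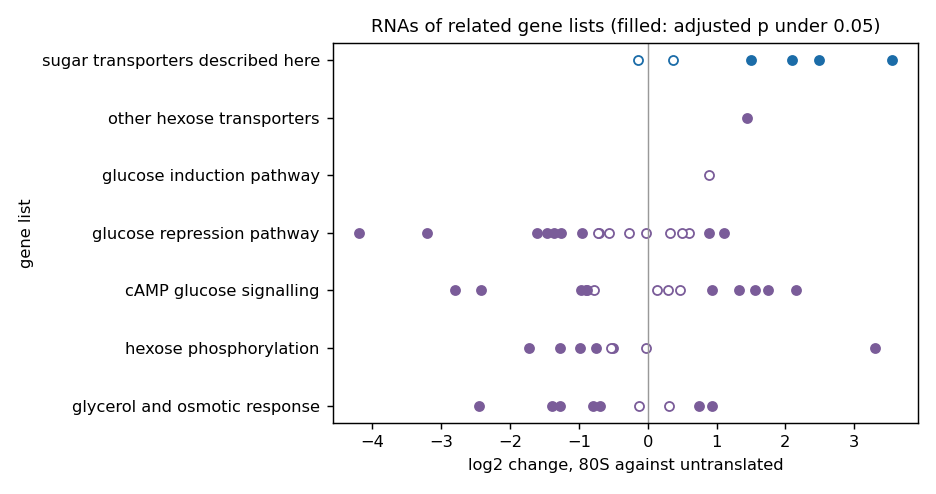
Log2 change between 80S and untranslated RNA of the 6 transporter RNAs (blue, top row) and of the RNAs of 6 related gene lists (purple, 1 point per RNA), with filled points at an adjusted p under 0.05. The transporters span -0.14 to 3.54, while the glucose repression list reaches down to -4.19 and the hexose phosphorylation list holds 1 RNA at 3.31 above a group below 0.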

How the data were processed

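The deposited table gives FPKM, 1 value for each RNA in each of the 6 libraries, as computed by the authors per the file headers. The submitters' processing notes name cutadapt and STAR. Not given in the sources used here are the program behind FPKM, the genome build and how shared reads were treated. Depth is unknown: 3.99% of input values (81.8% of the 77 under 100 FPKM) were whole multiples of the smallest, with a tolerance of 0.01 steps, so whole reads were not recovered.

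Values were transformed to log2(FPKM + 1), and all RNAs in the 6 libraries were fitted with limma 3.58.1 (R 4.3.3), with 1 mean per group and a mean-variance trend (3 residual and 5.15 prior degrees of freedom) and Benjamini-Hochberg adjustment over the table at 0.05. Fold changes are on that scale, which understates changes of low RNAs. A filter (mean FPKM of at least 10, input above 0) removed 0 RNAs. For RNAs of 1 gene, every pair was tested as longer minus shorter leader. The fit of 80S against untranslated RNA was tested on simulated data in which few RNAs changed, whereas 70.4% passed in the data. The input comparisons and the pairs were not tested in this way.

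Leaders were read from R64 as the stated number of bases before the start codon: 6855 RNAs (98.5%) received one. The reading was checked on them: 96.1% had a pyrimidine just upstream, against a mean share of 42.1% within leaders. The reference annotates no leaders for these genes.

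Members and gene lists were chosen with earlier results of these data known. Named RNAs were all members, the highest and lowest of each list, and the 2 nearest RNAs of the highest and lowest member; others in the lists were named after their values were seen. Replicate numbers of the fractions are shared in the labels, which do not say that they mark a common extract or day, so the fit had no replicate block. Alternatives were other pseudocounts and filters, median ratio rescaling, no trend, a replicate block, no input and leaving out each library. Python 3.11.15 was used with numpy 2.4.6, pandas 2.3.3 and scipy 1.17.1.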

Additional observations from a re-analysis of the deposited data

How the results depend on the processing

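The 6 transporter RNAs gave 219 values of log2 change over the 3 comparisons and the alternatives, and 208 kept direction and side of the threshold. No call among them was lost. Where 1 untranslated library was left out, the other was assumed to vary like the 80S libraries. The replicate block left the 4 transporters higher in 80S than in untranslated RNA, and it moved the counts of all RNAs to 2767 higher and 2256 lower. Deviations of same-numbered libraries correlated at 0.09 for number 1 and 0.53 for number 2, too few pairs to show pairing. Those of 80S replicate 3 and untranslated replicate 1, which differ in number, correlated at 0.55. Deviations were taken from the mean of each fraction, so these correlations are tied to each other and cannot decide on pairing. Of the 15 pairs of members 12 differed with the block, where 13 did without it. Leaving out single libraries gave 0 to 1 member lower in 80S than in untranslated RNA and 0 to 1 lower in 80S than in the input, in each case HXT1. Signs turned for values near 0. Leaving out single libraries, HXT1 in 80S against untranslated RNA ranged from -0.66 to 0.39 (0.00011 without 80S replicate 2), and in 80S against the input HXT7 from -0.13 to 0.013, HXT3 from -0.072 to 0.015 and STL1 from -0.057 to 0.20. After rescaling, HXT7 and HXT3 stood at 0.17 and 0.20 in 80S against the input. The cause was not tested. Rescaling raised the RNAs higher in untranslated RNA than in the input to 1825, where the deposited scaling gave 1209. A minimum mean of 500 FPKM removed HXT2. For the named RNAs of the lists, 125 of 129 values kept direction and call, and the other 4 were YCK1 passing. Limits are the 2 untranslated libraries, the single input library and the unknown depth.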
